A study of Homo sapiens with 4 samples.

Results

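The insulin-like growth factor (IGF) ligands and their binding proteins are secreted products of the liver, and 10 genes were taken as members by name: the ligands IGF1 and IGF2, the binding proteins IGFBP1, IGFBP2, IGFBP3, IGFBP4, IGFBP5, IGFBP6 and IGFBP7, and IGFALS, which encodes the acid-labile subunit. The gene lists used here have a background of 22148 genes, and whether members listed in neither cell line are among them is not shown. The rule uses their names and no measured value. HepG2 and Huh7, both long-established lines from human liver tumors, were grown in medium with fetal bovine serum. RNA was sequenced from 4 groups with 1 library each: untreated HepG2 cells (A), HepG2 cells after sonodynamic therapy (SDT, B), untreated Huh7 cells (C) and Huh7 cells after SDT (D). In SDT, ultrasound activates a sensitizer, which here was hematoporphyrin monomethyl ether carried with lonidamine in nanobubbles. No replicate check exists for any difference between groups, and treated cells received the sensitizer, lonidamine, the bubbles and ultrasound together, so their parts cannot be told apart.

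IGF1 and IGF2 act mainly through the receptor IGF1R, which drives growth and survival through the insulin receptor substrates and PI3K-Akt signaling. In blood the ligands are held by binding proteins, most of the circulating pool in a ternary complex of ligand, IGFBP3 or IGFBP5, and the acid-labile subunit. Hepatocytes are the main source of circulating IGF1 and of the acid-labile subunit, and they also secrete IGFBP1, which is known for its repression by insulin and its induction by fasting and cellular stress.

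The values are numbers of genes. For each cell line, the authors placed the mRNAs that differed between the treated and the untreated library into Gene Ontology (GO) terms, which group genes by process, function or cell component, and into KEGG pathways. A gene is "listed" here when its identifier stands under at least 1 GO row of that comparison. A listing says that the authors called the gene different and that it has a GO annotation. The tables used here hold no expression level and no direction, so whether a listed gene was higher or lower after SDT, and whether liver markers were present in these libraries, was not analysed here. A gene listed in neither cell line may have been unchanged, unexpressed or without annotation, which cannot be told apart. A gene listed in 1 cell line has an annotation, so in the other it was not called different, and may have been unchanged or unexpressed there.

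In HepG2 cells, 2 of the 10 genes were listed, the ligand IGF1 and the binding protein IGFBP1. In Huh7 cells 2 of the 10 were listed as well, and these were the binding proteins IGFBP1 and IGFBP5. Of all 22148 background genes, 21.6% (4783 genes) were listed in HepG2 and 19.7% (4369 genes) in Huh7 cells, so 2 of 10 lies near the background and is no result about the members. The background was also taken among secreted products, where it was higher, most of all in Huh7 cells. Among the 2135 genes of the term extracellular space, 22.5% were listed in HepG2 and 24.1% in Huh7 cells, and among the 5050 genes of the wider term extracellular region the shares were 22.7% and 22.8%. IGFBP1 was the 1 member of 10 listed in both cell lines, beside 2281 background genes (10.3%) listed in both, which made up 47.7% of the HepG2 list and 52.2% of the Huh7 list. The comparisons share no library.

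**Figure D1:**
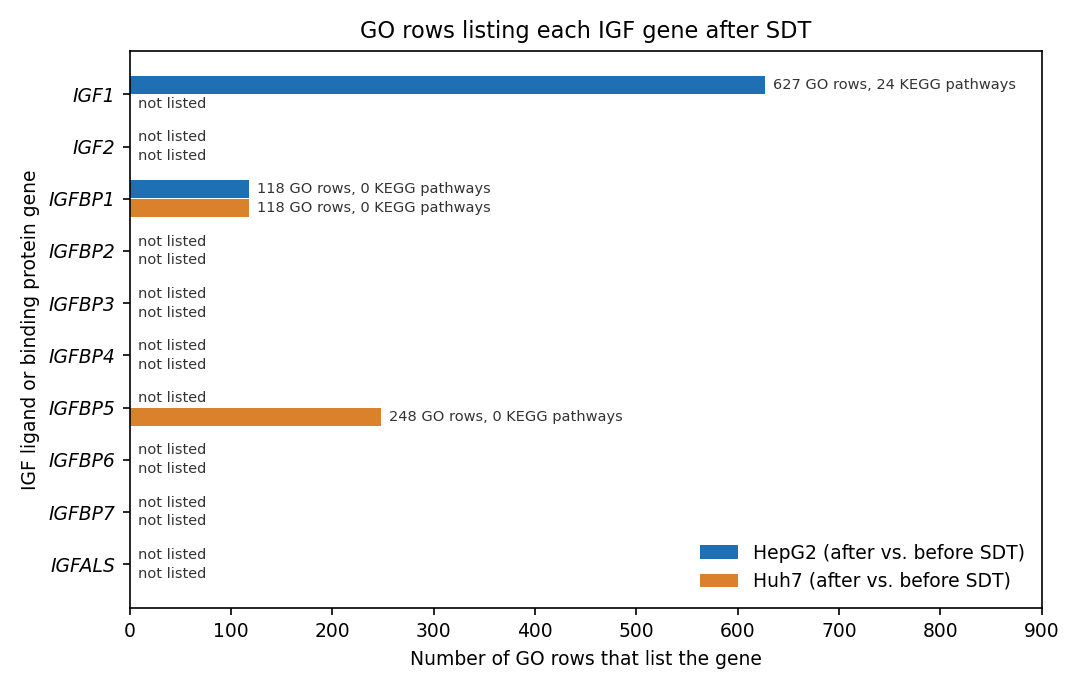
Number of GO rows (x axis) that list each of the 10 IGF genes (y axis) in HepG2 cells (blue) and Huh7 cells (orange), with the number of KEGG pathways written beside each bar. IGFBP1 has bars of 118 rows in both cell lines, IGF1 a bar of 627 rows in HepG2 cells and IGFBP5 a bar of 248 rows in Huh7 cells, and the other 7 genes have none. The length of a bar reflects how fully a gene is annotated and not the size of a change.

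Among the ligands, IGF1 (ENSG00000017427) was listed in HepG2 cells and not in Huh7 cells. It stood under 627 GO rows, of which 576 were processes, 10 were molecular functions and 41 were cell components, and it was the member with the most rows. The number of rows reflects how fully a gene is annotated and not how much it changed. IGF2 (ENSG00000167244), the fetal growth factor that many liver tumors express again, was listed in neither cell line. A second identifier for IGF2 in GENCODE release 29 was not listed either.

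Among the 7 binding proteins, IGFBP1 (ENSG00000146678) was listed in both cell lines, under 118 GO rows with 87 processes, 8 functions and 23 components. These rows are its annotations, so they are the same wherever it is listed. IGFBP5 (ENSG00000115461), which binds extracellular matrix and takes part in ternary complexes, was listed in Huh7 cells and not in HepG2 cells, under 248 rows of which 214 were processes. IGFBP2, a major binding protein of fetal serum, was not listed in either cell line. Neither were IGFBP3, the main carrier in adult serum, IGFBP4, an inhibitor of IGF action that the protease PAPPA cleaves, and IGFBP6, which prefers IGF2. IGFBP7, whose affinity for IGFs is low, and IGFALS were also not listed. Thus 5 of the 7 binding proteins were listed in neither cell line.

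The members include neighbors in the genome. IGFBP1 and IGFBP3 lie next to each other on chromosome 7 in the GENCODE 29 annotation, with 0 protein-coding genes between them, and in both cell lines IGFBP1 was listed and IGFBP3 was not. IGFBP2 and IGFBP5 are neighbors on chromosome 2, also with 0 protein-coding genes between them, and IGFBP5 was listed in Huh7 cells without IGFBP2. Each pair is encoded on opposite strands. With 21.6% and 19.7% of all genes listed, neighbors of which 1 is listed are no result about these pairs.

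The most specific annotations of the listed members were taken as the rows with the fewest background genes. Being the smallest rows, they need not name the main functions of a member. For IGF1 in HepG2 cells these included negative regulation of oocyte development (1 of 1 background gene listed), glycolate metabolic process (1 of 3) and the IGF ternary complex (1 of 4). The complex of IGF1 and its receptor with alphav-beta3 integrin had 3 of its 4 genes listed in HepG2 cells. These were IGF1 and both integrin subunits, ITGAV and ITGB3, and in Huh7 cells 0 of the 4 were listed. All these rows were taken because IGF1 was listed in HepG2 cells, so IGF1 counts there and cannot count in Huh7 cells. With so few genes, and 21.6% (HepG2) and 19.7% (Huh7) of all background genes listed, the difference is no result about this complex. The row for satellite cell maintenance in muscle regeneration had 3 of 5 genes listed in HepG2 cells (IGF1, the Wnt receptor FZD7 and the selenoprotein SELENON) and 1 of 5 in Huh7 cells (FZD7).

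For IGFBP1 the most specific rows were the same in both cell lines, as follows from its annotations, and the genes listed beside it are given for each. Over the whole lists, 47.7% of the HepG2 genes and 52.2% of the Huh7 genes were shared, so differing genes are no feature of these rows. In the row for IGF II binding, which holds 8 background genes, IGFBP1 was the 1 gene listed in HepG2 cells. In Huh7 cells 3 were listed there, IGFBP1, IGFBP5 and the IGF2 receptor IGF2R, which removes IGF2 from the cell surface. In the row for IGF I binding, with 12 background genes, 4 were listed in HepG2 cells (IGFBP1 and the integrin subunits ITGA6, ITGAV and ITGB3) and 2 in Huh7 cells (IGFBP1 and IGFBP5). Tissue regeneration, with 59 background genes, had 21 listed in HepG2 and 22 in Huh7 cells, 13 of them in both. Negative regulation of canonical Wnt signaling, with 137 background genes, had 49 listed in HepG2 and 30 in Huh7 cells. For comparison, 21.6% of all background genes were listed in HepG2 and 19.7% in Huh7 cells, and no difference was tested for these rows. The HepG2 list is the longer, and of the 118 rows of IGFBP1, 107 held more listed genes in HepG2 cells, 9 held more in Huh7 cells and 2 held equal numbers. These rows nest within each other and are not independent.

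For IGFBP5 in Huh7 cells, the most specific rows were the ternary complex (1 of 4), the IGF binding protein complex (1 of 5), IGF II binding (3 of 8), mammary gland involution (2 of 8, with the arginase ARG1) and negative regulation of IGF receptor signaling (5 of 9). Mammary involution listed 3 of 8 genes in HepG2 cells, and these were BAX, BSX and CAV1. The ternary complex and the binding protein complex were each represented by 1 gene in each cell line, by IGF1 in HepG2 cells and by IGFBP5 in Huh7 cells.

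The listed members of a cell line shared annotations to differing degrees. IGF1 and IGFBP1 shared 80 rows in HepG2 cells, which is 12.8% of the rows of IGF1 and 67.8% of those of IGFBP1, and the most specific were tissue regeneration and positive regulation of cell growth (35 of 155 genes listed). IGFBP1 and IGFBP5 shared 96 rows in Huh7 cells, 81.4% of the rows of IGFBP1 and 38.7% of those of IGFBP5. The most specific of these were the rows for binding of IGF II, IGF I and IGF, and they also included the endoplasmic reticulum lumen (103 of 312 genes listed).

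There were 11 GO terms that name the insulin-like growth factor, and 9 of them listed a member for HepG2 and 9 for Huh7, of which 8 did so for both. IGF1 stood under 6 of the 11 in HepG2 cells, IGFBP1 under 3 in both cell lines and IGFBP5 under 9 in Huh7 cells. The 11 terms together listed 24 genes for HepG2 and 21 for Huh7. They shared 12 (12 of 24 and 12 of 21, beside 47.7% and 52.2% for the whole lists), while 12 were listed for HepG2 alone and 9 for Huh7 alone. More genes were listed in HepG2 cells for 3 terms, more in Huh7 cells for 3, and equal numbers for 5.

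**Figure D2:**
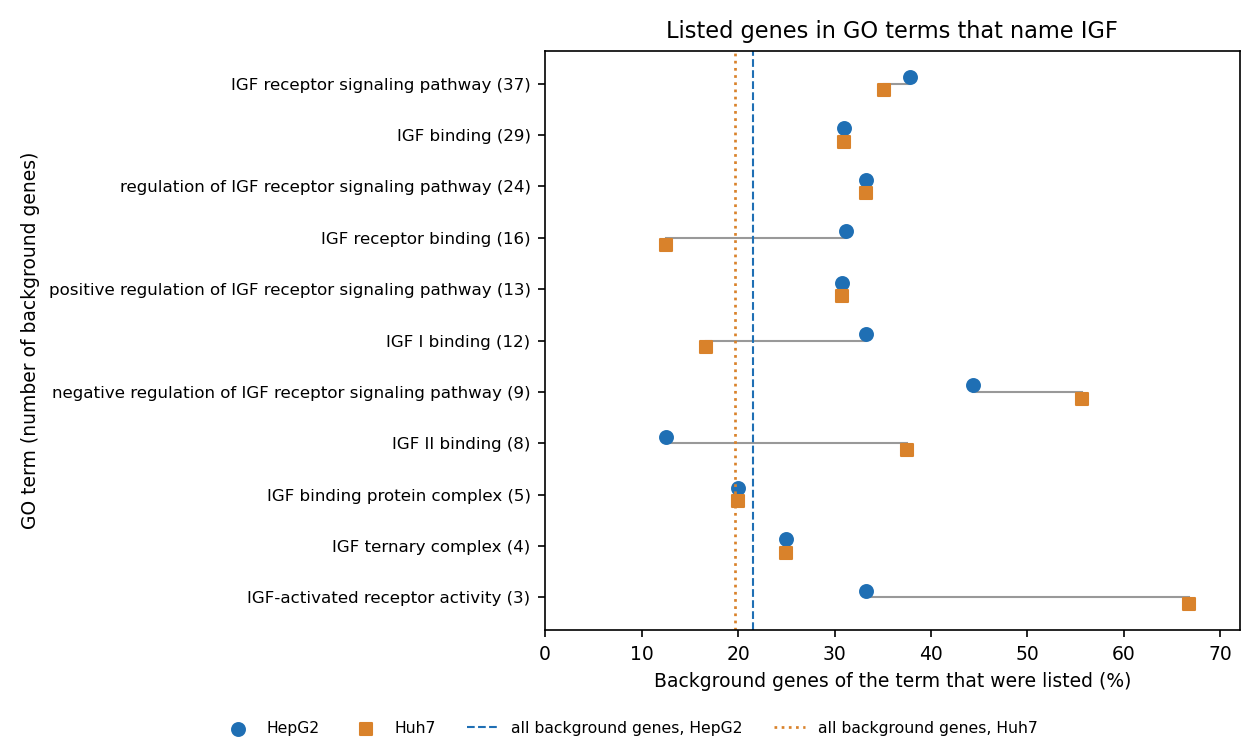
Percent of the background genes of each GO term naming the IGF that were listed (x axis) in HepG2 cells (circles) and Huh7 cells (squares), with the number of background genes in brackets and vertical lines at 21.6% (HepG2) and 19.7% (Huh7) for all background genes. The terms with over 20 background genes lie between 31.0% and 37.8% in both cell lines, while the terms with fewer genes are spread from 12.5% to 66.7%.

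The term for the IGF receptor signaling pathway had 14 of its 37 background genes (37.8%) listed in HepG2 and 13 (35.1%) in Huh7 cells. Of all background genes, 21.6% were listed in HepG2 and 19.7% in Huh7 cells. Whether the term differs from that background was not tested. In both cell lines 7 were listed (7 of 14 and 7 of 13, beside 47.7% and 52.2% for the whole lists), so differing genes are no feature of this term. Among these 7 were CILP, a cartilage matrix protein that antagonizes IGF1, the transmembrane protein CRIM1 and the receptor adaptor GRB10. The glycosidase MYORG, the ubiquitin ligase TRIM72 and the ligand WNT1 were also among them. Listed in HepG2 cells and not in Huh7 cells were IGF1, the receptor substrate IRS1, the PI3K regulatory subunit PIK3R1, the phospholipase PLCB1, the stress kinase EIF2AK3 (PERK), the ghrelin receptor GHSR and BMP5. Listed in Huh7 cells and not in HepG2 cells were IGFBP5, IGF2R, the growth hormone receptor GHR, the GRB10 partner GIGYF1, the cadherin CDH3 and BMP2.

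The negative regulators of this pathway, with 9 background genes, had 4 listed in HepG2 (44.4%) and 5 in Huh7 cells (55.6%). CILP and TRIM72 were among the 3 listed in both, BMP5 was listed in HepG2 cells, and BMP2 and IGFBP5 were listed in Huh7 cells. The positive regulators, with 13 background genes, had 4 listed in each cell line (30.8%). MYORG and WNT1 were listed in both, with GHSR and IGF1 in HepG2 cells and CDH3 and IGFBP5 in Huh7 cells. The gene ontology places IGFBP5 among both the positive and the negative regulators. The share of all background genes listed was 21.6% in HepG2 and 19.7% in Huh7 cells. With 9 and 13 background genes, each share of regulators rests on few genes. Whether negative and positive regulators differ was not tested.

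The term for IGF binding had 9 of 29 background genes (31.0%) listed in each cell line. Of the 9, 4 were shared, beside 47.7% and 52.2% of the whole lists, and these were IGFBP1, CRIM1, the matricellular protein CCN2 and the secreted protease HTRA3. The other 5 in HepG2 cells were CCN5, the proteoglycan ESM1, and the integrin subunits ITGA6, ITGAV and ITGB3. The other 5 in Huh7 cells were IGFBP5, IGF2R, CCN4, the protease HTRA4 and the IGFBP-like protein IGFBPL1. Binding to the IGF receptor, with 16 background genes, had 5 listed in HepG2 (31.2%) and 2 in Huh7 cells (12.5%). INSL4 and SOCS1 were listed in both, and IGF1, IRS1 and PIK3R1 in HepG2 cells. Both terms stand beside 21.6% of all background genes listed in HepG2 and 19.7% in Huh7 cells. Terms of 29 and 16 genes are small, and no difference from the background or between the cell lines was tested.

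In the KEGG tables, IGF1 was the 1 member present, in HepG2 cells, where it stood in 24 pathways. IGFBP1 and IGFBP5, though listed under GO, stood in 0 pathways in either cell line. The pathways that carry IGF signals had 115 of 347 background genes listed in HepG2 cells for PI3K-Akt signaling, 68 of 228 for Ras signaling, 44 of 134 for FoxO signaling, 39 of 124 for AMPK signaling and 18 of 60 for mTOR signaling. In Huh7 cells, without IGF1, the same pathways had 101, 69, 32, 27 and 16 genes listed. No share over all KEGG genes was computed, so whether these numbers are high is not known. The shares of 21.6% for HepG2 and 19.7% for Huh7 are for the GO background, which is another set of genes. The p53 signaling pathway, in which IGF1 is placed downstream of p53, had 27 of 68 genes listed in HepG2 and 18 in Huh7 cells. Of the 24 pathways, 17 held more listed genes in HepG2 cells, 6 held more in Huh7 cells and 1 held equal numbers. With IGF1 itself not counted, 15 held more in HepG2 cells, 7 held more in Huh7 cells and 2 were equal. The 24 pathways were taken because IGF1 was listed in them in HepG2 cells, and leaving IGF1 out of the counts does not undo that choice. The other KEGG pathways were not counted in this way, so these numbers are no result about IGF1. The pathways share genes, and the KEGG table of HepG2 cells covered 1693 listed genes against 1636 for Huh7 cells.

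**Figure D3:**
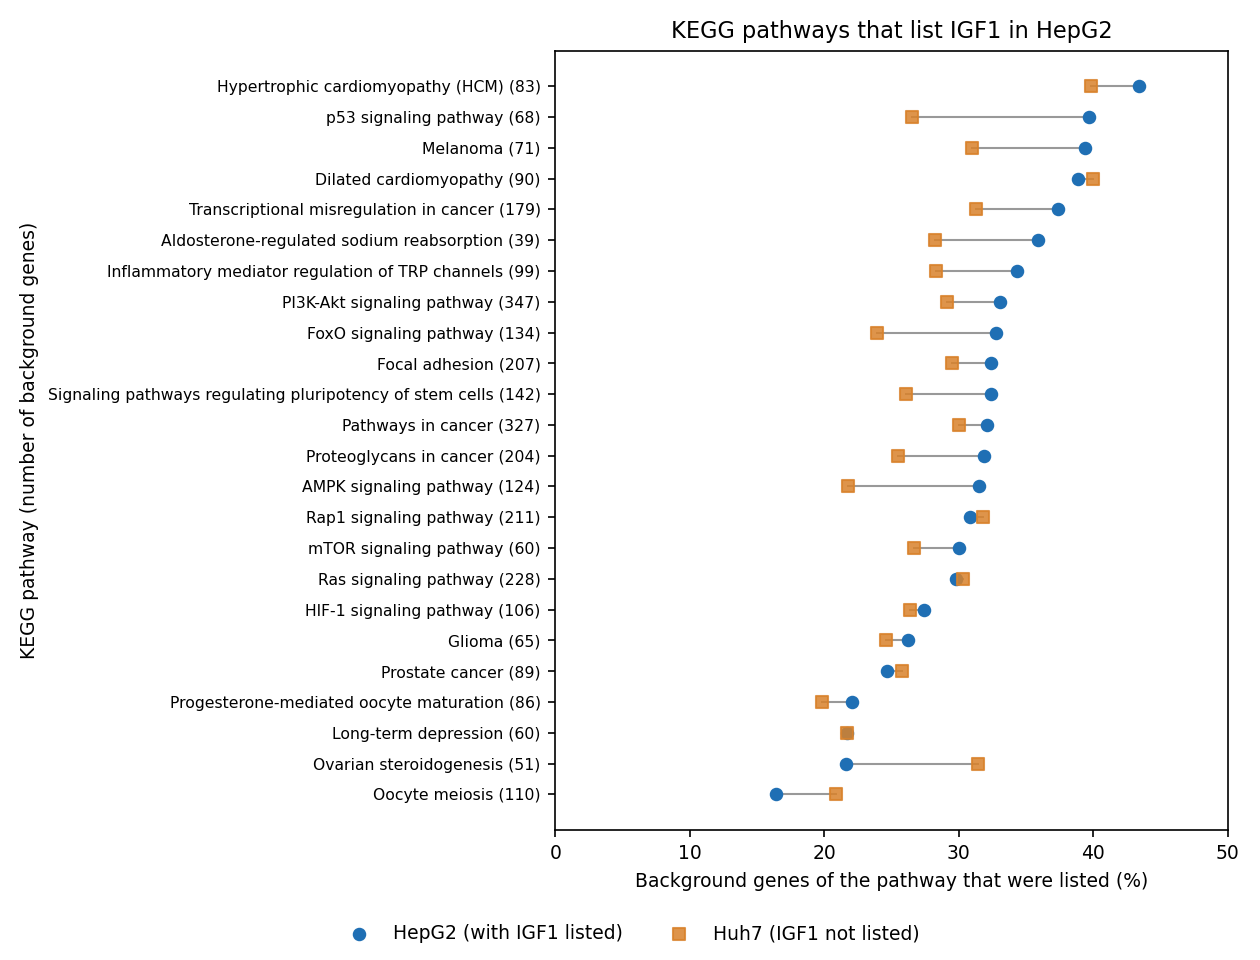
Percent of the background genes of each of the 24 KEGG pathways listing IGF1 in HepG2 cells that were listed (x axis) in HepG2 cells (circles) and Huh7 cells (squares), with the number of background genes in brackets. The circle lies to the right of the square in 17 pathways, among them p53 signaling at 39.7% against 26.5%, and to the left in 6, among them ovarian steroidogenesis at 21.6% against 31.4%. The pathways were chosen by the listing of IGF1 in HepG2 cells, and no share over all KEGG genes was computed.

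Beyond the members, 51 further genes of the pathway were examined by role, and 31.4% of them (16 genes) were listed for HepG2 and 37.3% (19 genes) for Huh7. There were 11 genes listed in both (11 of 16 and 11 of 19, beside 47.7% and 52.2% for the whole lists). A further 5 were listed in HepG2 cells and not in Huh7 cells, 8 in Huh7 cells and not in HepG2 cells, and 27 in neither. The shares listed in each cell line stand beside 21.6% and 19.7% of all background genes, and no test was made, since the genes were chosen by hand.

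**Figure D4:**
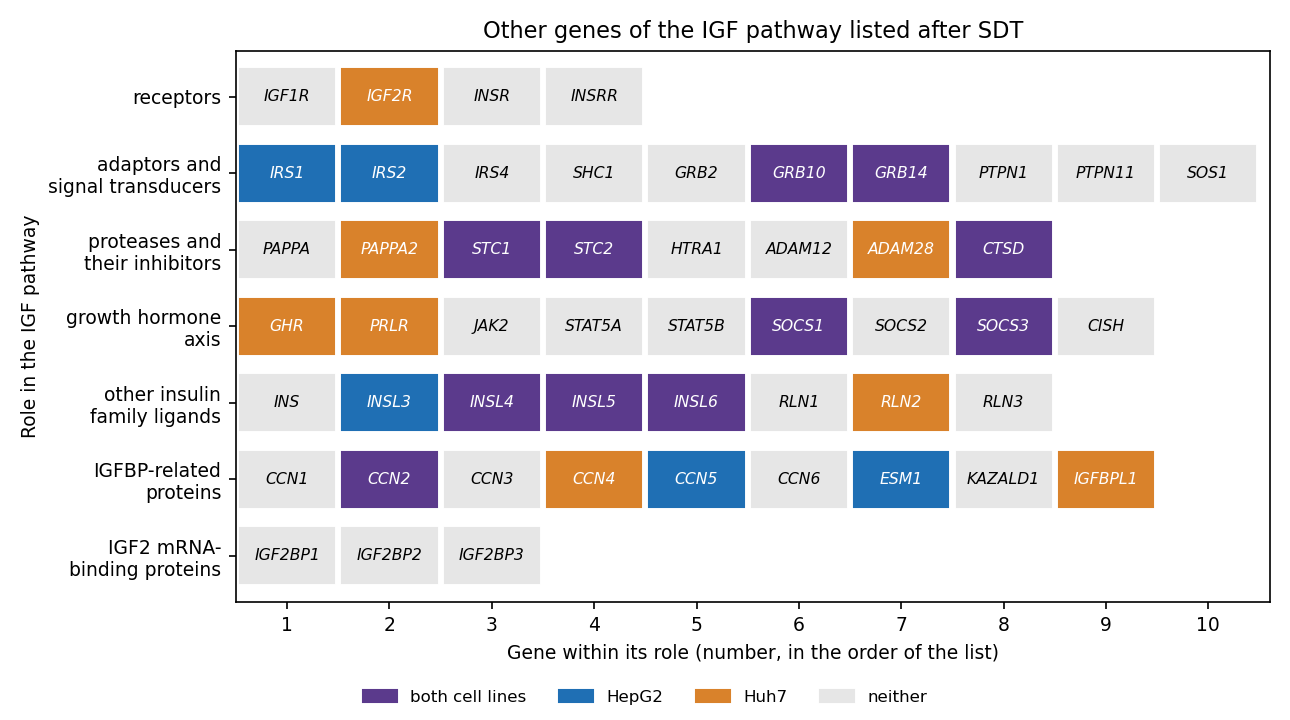
The 51 further genes of the IGF pathway, 1 box per gene, by role (y axis) and order in the list (x axis), colored by listing in both cell lines (purple), HepG2 cells without Huh7 cells (blue), Huh7 cells without HepG2 cells (orange) or neither (gray). IRS1 and IRS2 are blue, IGF2R, GHR and PRLR are orange, and IGF1R and INSR are gray.

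Of the 4 receptors, 0 were listed in HepG2 cells and 1, IGF2R, in Huh7 cells. The signaling receptors IGF1R and INSR, and the related INSRR, were listed in neither. Of the 10 adaptors and signal transducers, 4 were listed in HepG2 and 2 in Huh7 cells. GRB10 and GRB14, which bind and restrain the insulin and IGF receptors, were listed in both. The insulin receptor substrates IRS1 and IRS2, which pass the signal to PI3K, were listed in HepG2 cells and not in Huh7 cells.

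Of the 8 proteases that cleave binding proteins and the inhibitors of these proteases, 3 were listed in HepG2 and 5 in Huh7 cells. STC1 and STC2, the stanniocalcins that inhibit the PAPPA proteases, and the lysosomal protease CTSD were listed in both. PAPPA2, which cleaves IGFBP3 and IGFBP5, and ADAM28, which cleaves IGFBP3, were listed in Huh7 cells and not in HepG2 cells. PAPPA itself was listed in neither.

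Of the 9 genes of the growth hormone axis, which controls IGF1 and IGFALS transcription in the liver, 2 were listed in HepG2 and 4 in Huh7 cells. Among the feedback inhibitors, SOCS1 and SOCS3 were listed in both cell lines, and SOCS2 and CISH in neither. GHR and the prolactin receptor PRLR were listed in Huh7 cells, where IGF1 and IGFALS were not. JAK2, STAT5A and STAT5B, which pass on the growth hormone signal, were listed in neither.

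Of the 9 IGFBP-related proteins, 3 were listed in each cell line. CCN2 was listed in both, CCN5 and ESM1 in HepG2 cells, and CCN4 and IGFBPL1 in Huh7 cells. Of the 8 other insulin family ligands, 4 were listed in each cell line, with INSL4, INSL5 and INSL6 in both, INSL3 in HepG2 cells and RLN2 in Huh7 cells. The 3 IGF2 mRNA-binding proteins, IGF2BP1, IGF2BP2 and IGF2BP3, were listed in neither.

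Insulin signaling rows that hold IGFBP1 in both cell lines had somewhat more listed genes in HepG2 cells. The insulin receptor signaling pathway had 38 of 140 background genes listed in HepG2 (27.1%) and 31 in Huh7 cells (22.1%), 23 of them in both. Cellular response to insulin had 61 of 229 listed in HepG2 (26.6%) and 49 in Huh7 cells (21.4%), 30 of them in both. These shares stand beside 21.6% of all background genes in HepG2 and 19.7% in Huh7 cells, and the shared genes beside 47.7% and 52.2% of the whole lists. Of all 118 rows of IGFBP1, 107 held more listed genes in HepG2 cells, 9 held more in Huh7 cells and 2 held equal numbers. Higher numbers in HepG2 cells are therefore no feature of the insulin rows. The difference between the cell lines was not tested.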

How the data were processed

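The authors sequenced ribosomal RNA-depleted total RNA from 4 groups with 1 library each. The submitters' processing notes name Bowtie2 2.2.8, HISAT2, StringTie 1.3.1 and Cuffdiff 2.1.1, whereas the results of the paper name edgeR for the differential expression step. The genome build is not given in the sources used here. Per comparison (B vs. A and D vs. C, 2 in all), the authors deposited a GO table (GOseq) and a KEGG table (KOBAS) with numbers of listed and background genes, the identifiers of listed genes, and the authors' p-values and corrected p-values, which were not used. Read depth per library was not used, since the tables hold numbers of genes and no reads.

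The list of a comparison was taken as every identifier found in any GO row, and this gave 4783 and 4369 genes, the sizes stated in the tables. Symbols were matched to identifiers through a table of gene names, and all 10 members and 51 further genes had 1 identifier each. Gene order came from GENCODE release 29. Percentages are listed over background genes. No test was made. Reading of the tables was tested on simulated data. Named were all members, the further genes by role, the genes under IGF binding and IGF receptor signaling, GO terms naming the IGF, the 5 GO rows with the fewest background genes for each listed member, and KEGG pathways with a member, except that not every gene under these terms is reported here. The rows shared by members, the insulin response row and the genome neighbors were added after the tables had been read. The members and lists were chosen with earlier results of these data known. Alternatives were the KEGG tables, process rows alone, 8 members without IGFBP7 and IGFALS, extracellular genes as background, and terms without their listed members. The software was Python 3.11.15, scipy 1.17.1 and matplotlib 3.10.9.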

Additional observations from a re-analysis of the deposited data

How the results depend on the processing

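When the KEGG tables decided a listing, 1 member was listed for HepG2 and 0 for Huh7, with 0 shared, against 2, 2 and 1 by GO. The further pathway genes listed numbered 5 for HepG2 (16 by GO) and 6 for Huh7 (19 by GO). By construction, only genes with a KEGG pathway can count there. Process rows alone, leaving out IGFBP7 and IGFALS, and a second IGF2 identifier, chosen after seeing the data, left the member counts as they were. With extracellular space genes as background the percent listed moved to 22.5% in HepG2 cells and 24.1% in Huh7 cells, and with extracellular region genes to 22.7% and 22.8%. Of the 22 shares for IGF terms, 18 had a listed member to take out. Without it, 12 stayed within the 95% Wilson interval of the share, and 6 fell to 0.0% because members were their only listed genes. Only listed members were taken out, so a share could only fall. The intervals of small terms are wide, and IGF II binding in Huh7 cells stayed within its interval though it fell from 37.5% to 16.7%. Staying within the interval is therefore no sign that a share is robust. No paired analysis was possible because the tables used here hold no value per sample, so no test was made. With 1 library a group, no library could be left out.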

Other observations

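Several of the insulin family ligands listed in these liver cancer cells are known from other tissues. INSL4 is known from placenta, INSL5 from colon and INSL6 from testis, and all 3 were listed in both cell lines. INSL4 and INSL6 are neighbors on chromosome 9, with 0 protein-coding genes between them in GENCODE 29, and RLN2, listed in Huh7 cells, lies on the same strand as INSL6 with 1 gene, INSL4, between them. JAK2, the neighbor of INSL6 on the other side, was listed in neither cell line. The relaxin gene RLN1, whose position was not analysed here, was not listed in either. With 21.6% of all genes listed in HepG2 and 19.7% in Huh7 cells, listed neighbors are no result about this locus. Whether the listed ligand genes were at a low level was not analysed here.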
